A study of Homo sapiens with 12 samples.

Results

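Described here are 6 genes outside lipid metabolism that stood higher with the phthalate ester MCHP in M2 macrophages or responded to it more there than in M1: TNFRSF21, SLCO2B1, AOC3, MEGF9, PPP2R3A and VWA5A. They were picked by name out of 58907 genes in the count table, and all 6 were among the 15252 genes that passed the filter on low counts. Earlier results on the MCHP response in M2, and on how far it differed from M1, chose them. Their MCHP responses are therefore given as a description with no test.

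The 12 libraries came from PPRE-eGEP-THP-1 cells, a line made from the human monocytic leukaemia line THP-1. All cells were turned into macrophages with 25 ng/mL phorbol 12-myristate 13-acetate for 48 h, followed by 24 h in fresh medium. Of the 4 groups of 3 libraries, M1 DMSO and M1 MCHP then spent 24 h with interferon gamma at 20 ng/mL plus lipopolysaccharide at 100 ng/mL, and M2 DMSO and M2 MCHP with IL-4 and IL-13 (20 ng/mL each). MCHP (monocyclohexyl phthalate, the monoester of the plasticizer dicyclohexyl phthalate) was present at 100 µM during polarization, and the controls received DMSO, its solvent. The submitters call the 3 replicates of a group biological, and all come from 1 engineered line.

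M1 and M2 name the extremes of macrophage activation, the first driven by bacterial products and interferon gamma, the other by IL-4 and IL-13. The 6 genes share no pathway. TNFRSF21 (death receptor 6) is a surface receptor of the TNF receptor family with an intracellular death domain, and SLCO2B1 is an uptake transporter for organic anions such as steroid sulfates and many drugs. AOC3 (vascular adhesion protein) is a surface copper amine oxidase that turns primary amines into aldehydes with release of hydrogen peroxide and ammonia, best known from endothelium, smooth muscle and adipocytes. MEGF9 is a membrane protein with EGF-like repeats. PPP2R3A is a regulatory subunit of the serine/threonine phosphatase PP2A, and VWA5A is an intracellular protein with a von Willebrand factor A domain.

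Depth was 14352202 to 16871233 gene counts per library. Levels are in CPM, the count scaled to the TMM-adjusted size of its library, or in RPKM, which is CPM per kilobase of gene model, where genes are compared with each other. These are bulk samples, so fewer cells of a type and less RNA per cell cannot be told apart. M2 DMSO replicate 1 stood apart: the SD across genes of its log2 difference from the other two of its group was 0.445, and 0.316 to 0.352 for the other 11 libraries. The M1 markers CXCL9, CXCL10, IDO1, CCR7, GBP5 and IL12B summed to 1260 to 1303 CPM in M1 DMSO and 1133 to 1244 in M1 MCHP. In M2 they summed to 0.455 to 0.692 CPM with DMSO and 0.82 to 1.28 with MCHP. With MCHP this sum was thus lower in M1 and, at very low levels, higher in M2, without overlap in either. The part of this shift in the values of the 6 genes was not tested. The M2 markers MRC1, CCL13, CCL17, CCL22, CD209 and ALOX15 summed to 66.1 to 74.4 CPM in M1 DMSO and 76.4 to 80.7 in M1 MCHP. In M2 they summed to 792 to 999.9 CPM with DMSO and 1270.0 to 1359 with MCHP. That sum was higher with MCHP in both states without overlap. The 6 genes shared this in M2, but in M1 the groups of TNFRSF21, AOC3 and MEGF9 overlapped. The part of the sum in their values was not tested. In M2 the chemokine gene CCL22 accounted for the higher sum, with means of 741 and 1212 CPM in M2 DMSO and M2 MCHP. There CD209 stood at 161 and 107, ALOX15 at 11.8 and 7.24 and CCL13 at 4.76 and 1.93. In M1 DMSO and M1 MCHP, CD209 stood at 53.5 and 60.5 CPM, CCL22 at 12.25 and 14.2, CCL13 at 3.88 and 3.06 and ALOX15 at 0.345 and 0.278. The 8 macrophage markers were CD68, CD14, LYZ, CSF1R, ITGAM, SPI1, TYROBP and FCER1G. They summed to 1696 to 1771 CPM in M1 DMSO, 1645 to 1655 in M1 MCHP, 1532 to 1718 in M2 DMSO and 1473 to 1503 in M2 MCHP. The sum was lower with MCHP in both states without overlap. Single means went the other way for ITGAM in M1 (356 to 363 CPM), LYZ in M2 (66.7 to 68) and CD68 in both states. The part of this sum in the values of the 6 genes was not tested. CD68 received few counts, with group means of at most 0.385 CPM, which does not show that the cells lacked its RNA. Group means of MRC1, CCL17, IL12B and CCR7 were at most 0.0443, 0.117, 0.0437 and 0.423 CPM. Markers of adipocytes (ADIPOQ, LEP, PLIN1, CIDEC) and hepatocytes (ALB, APOA1, TTR, SLCO1B1) summed to at most 0.524 and 0.516 CPM in any library.

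Promoter windows from RefSeq (GRCh38.p14), 250 bases before to 50 bases from an annotated start, were held for 4 of the genes, 6 windows in all. One window of each gene is printed, so that the letters near the starts of genes chosen for being higher in M2 with MCHP can be compared. For PPP2R3A it is the inner one, the only window with AGGTCA. The outer PPP2R3A window, whose start lies 55 bases past the first base of the gene model, is not printed. Capitals mark CACGTG (an E-box), GAGGAA (the core bound by PU.1, a macrophage regulator) and AGGTCA (a nuclear receptor half-site), each read on both strands and printed 5′ to 3′ along the gene.
TNFRSF21, chr6:47309856-47310155, minus strand: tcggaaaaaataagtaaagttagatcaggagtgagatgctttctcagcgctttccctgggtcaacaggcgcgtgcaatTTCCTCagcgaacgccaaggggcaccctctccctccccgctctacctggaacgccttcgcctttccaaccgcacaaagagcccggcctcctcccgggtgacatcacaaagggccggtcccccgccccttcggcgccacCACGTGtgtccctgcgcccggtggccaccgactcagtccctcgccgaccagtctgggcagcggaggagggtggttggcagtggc
MEGF9, chr9:120714421-120714720, minus strand: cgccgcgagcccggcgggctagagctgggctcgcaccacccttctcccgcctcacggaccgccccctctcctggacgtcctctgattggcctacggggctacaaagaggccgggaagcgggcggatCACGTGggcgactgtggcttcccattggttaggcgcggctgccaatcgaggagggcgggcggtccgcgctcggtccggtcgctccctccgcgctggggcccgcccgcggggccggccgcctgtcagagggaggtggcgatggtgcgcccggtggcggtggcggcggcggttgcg
SLCO2B1, chr11:75150857-75151156, plus strand: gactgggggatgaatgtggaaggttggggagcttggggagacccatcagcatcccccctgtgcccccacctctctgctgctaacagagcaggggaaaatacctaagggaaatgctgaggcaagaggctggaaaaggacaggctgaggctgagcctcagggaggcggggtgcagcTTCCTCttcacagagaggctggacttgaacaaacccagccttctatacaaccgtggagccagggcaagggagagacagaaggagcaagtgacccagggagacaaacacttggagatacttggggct
PPP2R3A inner start, chr3:136022492-136022791, plus strand: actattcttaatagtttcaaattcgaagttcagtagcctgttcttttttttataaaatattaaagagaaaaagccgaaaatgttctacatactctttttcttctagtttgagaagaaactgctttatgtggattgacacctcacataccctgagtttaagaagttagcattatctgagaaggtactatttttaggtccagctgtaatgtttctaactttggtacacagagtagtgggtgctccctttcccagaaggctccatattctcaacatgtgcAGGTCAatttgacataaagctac

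The windows had little in common beyond single short matches. CACGTG stood in the windows of TNFRSF21 (34 bases before the start) and MEGF9 (124 bases before it), where 7.26% of 35114 RefSeq windows of the same length hold it. GAGGAA, or its complement TTCCTC, was present in TNFRSF21 and in both SLCO2B1 windows (27.9% of all windows). The inner PPP2R3A window alone held AGGTCA (13.8% of all windows), 27 bases past the start. None of the 6 windows held the PPAR pattern, AGGTCA repeated after 1 free base (0.0228% of all windows), which contains the half-site, the STAT6 pattern, TTC and GAA with 4 free bases between (6.44%), or the AP-1 pattern TGANTCA (7.71%). The GC box GGGCGG, which is not capitalised and can overlap itself, was in TNFRSF21, MEGF9 and the outer PPP2R3A window (45% of all windows). GC content ran from 35.3% in the inner PPP2R3A window to 78.3% in the outer one, with 63.3% for TNFRSF21, 75% for MEGF9 and 57.3% and 58.7% for SLCO2B1, around a median of 58.7% over all windows. Both SLCO2B1 starts lie inside the gene model of the count table, 50544 and 59269 bases past its first base, and the inner PPP2R3A start lies 57069 bases past. The table gives 1 count per gene, so which start was used was not measured.

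TNFRSF21 was by far the most abundant of the 6 per length (ENSG00000146072, chromosome 6, 47231532 to 47309905, minus strand, hg38). Its level in M2 DMSO was 180.1, 209.7 and 229.6 CPM in replicates 1 to 3, and in M2 MCHP 290.2, 289 and 305. In M1 it was 167, 160.1 and 156 CPM with DMSO and 159, 153 and 153 with MCHP. Every M2 library with MCHP lay above every M2 library with DMSO, while the M1 groups overlapped. The log2 fold change with MCHP was 0.51 ± 0.07 (SE) in M2, with means of 206 ± 24.9 and 295 ± 8.61 CPM (SD, n = 3), and -0.05 ± 0.07 in M1. This was the lowest M2 fold of the 6, rank 556 from the top of 15252 genes, but the largest gain in CPM, 88.3. M2 DMSO replicate 1 was the lowest of its group, and without it the log2 fold change in M2 was 0.42.

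SLCO2B1 (ENSG00000137491, chromosome 11, 75100563 to 75206549, plus strand) had the widest gap between M2 and M1. In M2 it held 6.30, 8.12 and 10.3 CPM with DMSO and 20.4, 22 and 22.2 with MCHP. In M1 it was close to the limit of the depth, with 9, 3 and 6 counts with DMSO and 15, 10 and 18 with MCHP. Groups did not overlap within either state. The fold with MCHP was 2.60 in M2 (log2 1.38 ± 0.16) and 2.33 in M1 (1.22 ± 0.42). The summed M1 counts, 43 against 18, gave a ratio of 2.37 with an exact 95% interval of 1.34 to 4.36 for counting error alone. That interval leaves out the spread between libraries, so it is no test of the M1 response. On the fold scale the values of SLCO2B1 neither bore out nor contradicted the description "mainly in M2". The response in M2 exceeded that in M1 by 0.16 ± 0.52 log2, too wide an error to tell equal responses from a larger one in M2. In CPM the gain was 13.3 in M2 and 0.539 in M1. M2 DMSO replicate 1 was again the lowest of its group, and without it the log2 fold change in M2 was 1.22.

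AOC3 (ENSG00000131471, chromosome 17, 42851184 to 42858130, plus strand) was higher with MCHP in M2 and near its controls in M1. It held 5.73, 4.59 and 6.67 CPM in M2 with DMSO and 13, 13.3 and 12.9 with MCHP. In M1 it held 6.58, 7.35 and 7.51 CPM with DMSO and 5.70, 8.13 and 7.21 with MCHP. The M2 libraries with MCHP lay close together and above all 9 others, and the M1 groups overlapped. The fold with MCHP was 2.30 in M2 (SE 0.15 in log2), and the log2 fold change in M1 was -0.03 ± 0.16, a gap of 1.24 ± 0.22, the widest of the 6. Leaving out M2 DMSO replicate 1 gave 1.21 in M2. Endothelial markers, summed over VWF, CDH5, CLDN5 and TEK, went from 55.3 to 74.5 CPM in M2 DMSO libraries to 80.6 to 92.7 in M2 MCHP. That sum was nearly all VWF, since group means of CDH5, CLDN5 and TEK were at most 0.280, 0.107 and 0.0645 CPM, and its part in the AOC3 values was not tested. Smooth muscle markers (MYH11, ACTG2, CNN1, DES) summed to 6.03 to 7.11 CPM in M2 DMSO and 4.26 to 6.29 in M2 MCHP.

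MEGF9 (ENSG00000106780, chromosome 9, 120600813 to 120714470, minus strand) was low in M2 DMSO alone. It held 3.47, 4.29 and 3.53 CPM there, and 9.49, 8.13 and 9.59 in M2 MCHP. In M1 the values were 6.43, 6.88 and 7.51 CPM with DMSO and 9.20, 7.41 and 8.13 with MCHP. With MCHP the M2 libraries thus reached the range of M1 MCHP, and the M1 groups overlapped each other. The log2 fold change was 1.26 ± 0.15 in M2 and 0.25 ± 0.14 in M1. Without M2 DMSO replicate 1 the M2 value was 1.21.

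PPP2R3A (ENSG00000073711, chromosome 3, 135965673 to 136147891, plus strand) was higher with MCHP in both states, by more in M2. It held 9.79, 7.68 and 11.1 CPM in M1 DMSO and 15.7, 14.7 and 11.8 in M1 MCHP. In M2 it held 21.5, 15.4 and 16.4 CPM with DMSO and 35.2, 34.8 and 41.6 with MCHP. No MCHP library overlapped its controls, although M1 MCHP overlapped M2 DMSO. The log2 fold change was 1.07 ± 0.14 in M2 and 0.56 ± 0.16 in M1. Here M2 DMSO replicate 1 was the highest of its group, and the M2 value without it was 1.23.

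VWA5A (ENSG00000110002, chromosome 11, 124115362 to 124147721, plus strand) and SLCO2B1 had M2 folds of 2.63 and 2.60, ranks 33 and 35 of 15252 genes, within each other's error. VWA5A held 3.21, 5.18 and 4.10 CPM in M2 DMSO and 10, 12 and 11 in M2 MCHP. M1 DMSO had 3.00, 2.63 and 1.84 CPM and M1 MCHP 3.82, 3.12 and 3.21. The M2 MCHP libraries stood above all others by a wide margin, and M1 MCHP lay just above M1 DMSO and overlapped M2 DMSO. The log2 fold change was 1.39 ± 0.18 in M2 and 0.45 ± 0.22 in M1, and the M2 value was 1.24 without M2 DMSO replicate 1.

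**Figure D1:**
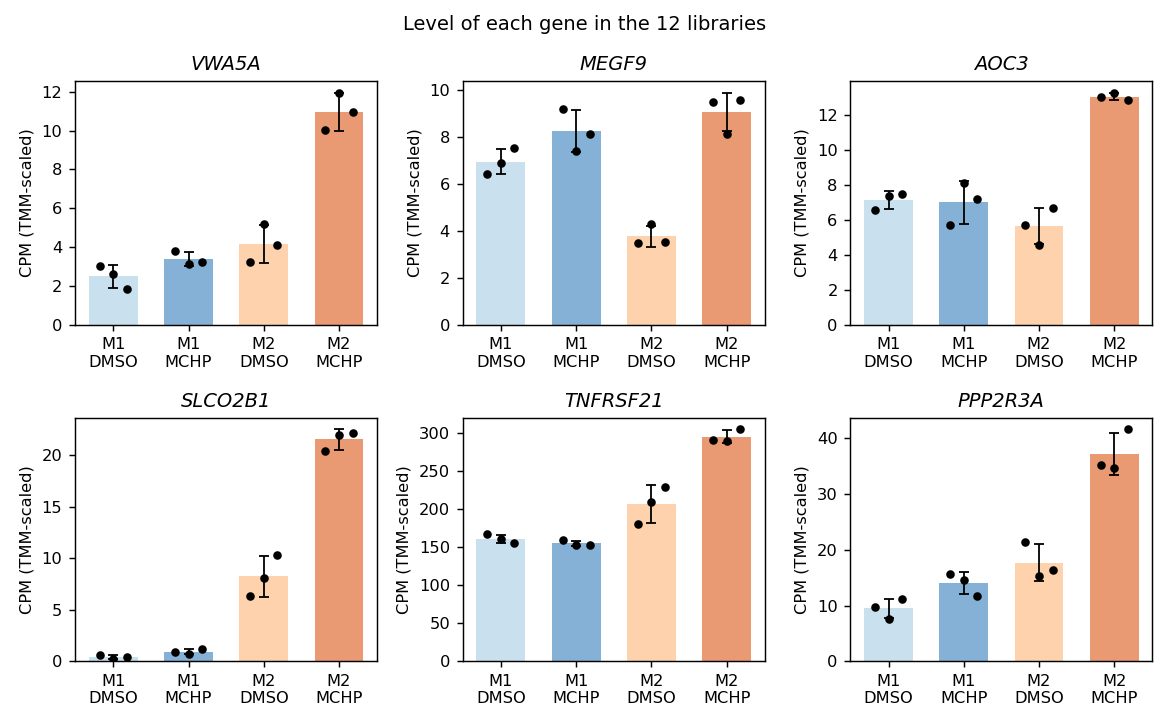
Level of each gene (CPM, TMM-scaled, linear axis from 0) in M1 and M2 macrophages with DMSO or MCHP. Bars are means, error bars SD of 3 libraries, points single libraries. M2 MCHP libraries lie above M2 DMSO libraries in all 6 panels, and SLCO2B1 in M1 stays at or below 1.18 CPM.

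Set side by side, the MCHP libraries lay above the DMSO libraries in M2 without overlap for 6 of 6 genes, against 11.2% of all tested genes in that direction, a count that restates the choice of the genes. In M1 the groups did not overlap for 3 (SLCO2B1, PPP2R3A and VWA5A), against 8.35% of all genes. The median log2 fold change of the 6 was 1.23 in M2 and 0.35 in M1, and that of all 15252 genes was near 0 in both.

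The response in M2 exceeded that in M1 by 1.24 ± 0.22 log2 for AOC3, 1.01 ± 0.21 for MEGF9, 0.94 ± 0.29 for VWA5A, 0.57 ± 0.10 for TNFRSF21 and 0.51 ± 0.21 for PPP2R3A. The choice of genes used these differences, so they are values without a test. Both MCHP responses are taken against separate controls, but they share 1 estimate of the spread per gene.

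**Figure D2:**
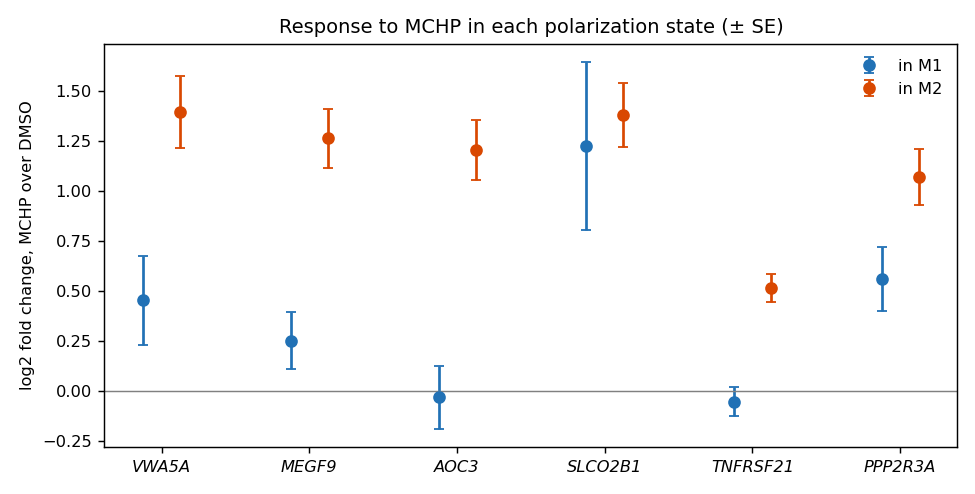
Log2 fold change of MCHP over DMSO (y axis) for the 6 genes in M1 (blue) and M2 (orange). Points are edgeR estimates and bars ± 1 SE. M2 values run from 0.51 to 1.39, and in M1 AOC3 and TNFRSF21 lie at -0.03 and -0.05 while SLCO2B1 lies at 1.22.

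How the genes stood between M1 and M2 without the compound was not used to choose them. The choice did favour low values in M2 DMSO and, through the difference of responses, high values in M1 DMSO. Both groups are shared with this comparison. With DMSO, SLCO2B1, PPP2R3A, VWA5A and TNFRSF21 were higher in M2 and MEGF9 was lower. SLCO2B1 had the widest difference, 8.25 ± 2.01 CPM in M2 DMSO against 0.409 ± 0.222 in M1 DMSO (SD, n = 3; log2 fold change 4.33 ± 0.28, adjusted p = 3.9e-10 by edgeR). It passed the filter on low counts through the other 3 groups, since 0 of 3 M1 DMSO libraries reached the minimum of 0.645 CPM. PPP2R3A was 17.7 ± 3.29 against 9.54 ± 1.74 CPM (0.89 ± 0.15, adjusted p = 0.00012 by edgeR). TNFRSF21 was 206 ± 24.9 against 161 ± 5.54 CPM (0.36 ± 0.07, adjusted p = 0.00050 by edgeR).

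VWA5A was 4.17 ± 0.98 CPM in M2 DMSO against 2.49 ± 0.59 in M1 DMSO (0.75 ± 0.21, adjusted p = 0.0082 by edgeR), the weakest of these calls. It was lost without M1 DMSO replicate 3 (adjusted p = 0.057) or M2 DMSO replicate 2 (0.055). MEGF9 was 3.77 ± 0.46 CPM in M2 DMSO against 6.94 ± 0.54 in M1 DMSO (-0.88 ± 0.15, adjusted p = 0.00011 by edgeR). The choice of genes favours this direction in both groups, so the MEGF9 call is no support. AOC3 was 5.66 ± 1.04 against 7.14 ± 0.50 CPM, and this difference of -0.33 ± 0.16 did not pass (adjusted p = 0.099). It passed without M2 DMSO replicate 3 (adjusted p = 0.036, log2 fold change -0.47). The 4 higher and 1 lower of 6 stand beside 20.9% and 21.6% of all genes. MEGF9, the 1 lower, and AOC3 went in the direction that the choice favoured.

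With MCHP present the order between states shifted for the genes that were not already higher in M2. This comparison is described without a test, since the choice of genes favoured high values in M2 MCHP. AOC3 stood 0.90 ± 0.15 log2 higher in M2 MCHP than in M1 MCHP, where with DMSO it was at -0.33. MEGF9 stood at 0.13 ± 0.14 and its groups overlapped, at 8.25 ± 0.90 CPM in M1 and 9.07 ± 0.82 in M2. VWA5A (1.69 ± 0.19), PPP2R3A (1.40 ± 0.14) and TNFRSF21 (0.93 ± 0.07) kept their direction with wider differences. SLCO2B1 stood at 4.48 ± 0.22, within the error of its 4.33 ± 0.28 with DMSO. Groups did not overlap with M2 above for 5 of 6, against 28.8% of all genes.

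**Figure D3:**
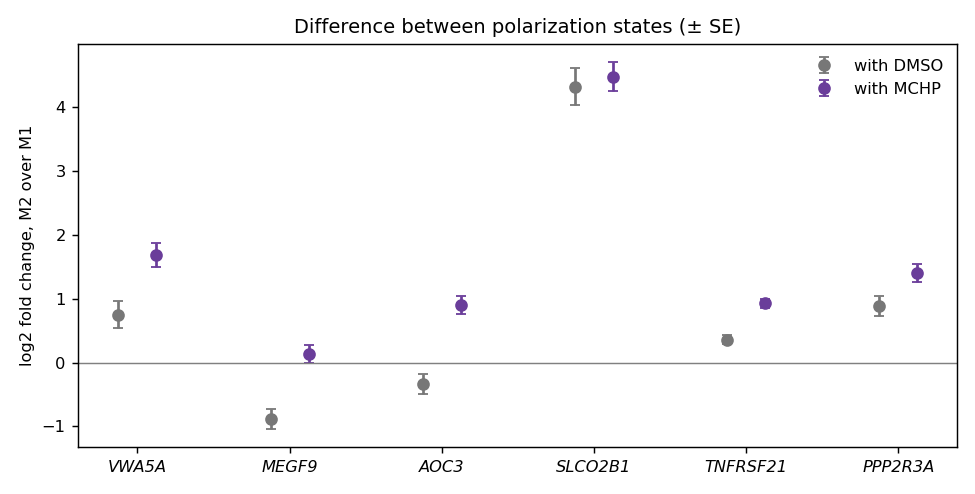
Log2 fold change of M2 over M1 (y axis) for the 6 genes, with DMSO (grey) and with MCHP (purple). Points are edgeR estimates and bars ± 1 SE. MEGF9 lies at -0.88 with DMSO and 0.13 with MCHP, AOC3 at -0.33 and 0.90, and SLCO2B1 above 4 in both.

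Per length, the genes spanned a wide range of levels. In M2 MCHP, TNFRSF21 stood at 82 ± 2.40 RPKM, PPP2R3A at 4.75 ± 0.49, AOC3 at 2.89 ± 0.05, SLCO2B1 at 2.08 ± 0.09, VWA5A at 1.71 ± 0.15 and MEGF9 at 1.44 ± 0.13. In M2 DMSO the order after TNFRSF21 (57.4 ± 6.93 RPKM) and PPP2R3A (2.26 ± 0.42) was AOC3 (1.25 ± 0.23), SLCO2B1 (0.797 ± 0.194), VWA5A (0.650 ± 0.154) and MEGF9 (0.598 ± 0.073), and the last 3 lay within each other's spread. In M1 DMSO, SLCO2B1 was the lowest at 0.0395 ± 0.0214 RPKM and AOC3, PPP2R3A and MEGF9 lay close together at 1.58, 1.22 and 1.10.

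The genes also differed from each other in pattern. Likeness was taken as the root mean square difference over the 12 libraries between log2 CPM values, each centred on its gene's mean, so that smaller is more alike. Among the 6, AOC3 and TNFRSF21 were most alike (0.349), then VWA5A and PPP2R3A (0.363), and MEGF9 and SLCO2B1 least (2.32). Of 9606 protein-coding genes with a mean of at least 5 CPM, the nearest to VWA5A were the synaptic scaffold gene SHANK3 (0.215), the lipid droplet gene PLIN2 (0.267) and the phosphodiesterase gene PDE1B (0.322). MEGF9 was nearest to ACSL5, an acyl-CoA synthetase (0.228), the lipopolysaccharide receptor TLR4 (0.242) and the transcription factor NFIX (0.258). The nearest genes to AOC3 were ADGRE3, an adhesion receptor (0.258), ZNF395 (0.268) and RPP25 (0.279).

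For SLCO2B1 the nearest was GPD1, a glycerol phosphate dehydrogenase (0.396), with PHOSPHO1 (0.763) and SNAI3 (0.771) well behind. TNFRSF21, whose pattern spans a small range, had close neighbours in GCN1 (0.0927), MPP1 (0.0945) and PRAM1 (0.0975). PPP2R3A was nearest to DPYSL3 (0.201), ITGB5, an integrin subunit (0.285), and PRSS12 (0.291). These neighbours were picked from the same libraries, so their own MCHP responses are given as values. In M2 they had log2 fold changes of 1.44 for SHANK3, 1.61 for PLIN2, 0.68 for PDE1B, 0.71 for ACSL5, 1.42 for TLR4 and 0.74 for NFIX. For ADGRE3, ZNF395 and RPP25 the values were 0.81, 0.62 and 0.92, and for GPD1, PHOSPHO1 and SNAI3 1.68, 0.82 and 0.53. GCN1, MPP1 and PRAM1 had 0.52, 0.43 and 0.35. In M1 the neighbours ran from -0.50 (PHOSPHO1) to 0.75 (GPD1), with SHANK3 at 0.71, PLIN2 at 0.60, TLR4 at 0.43 and ADGRE3 at -0.05. The neighbours of PPP2R3A had 0.64 (DPYSL3), 0.60 (ITGB5) and 0.68 (PRSS12) in M2, below its 1.07, and 0.61, 0.59 and 0.35 in M1, where it had 0.56.

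Relatives and partners of the 6 genes, 130 genes on 13 lists without the 6 themselves, were for the most part not called. By edgeR's test, 3 of the 94 tested rose and 6 fell with MCHP in M2, 9.57% in all. Over all genes tested 5.11% were called, 2.92% higher and 2.18% lower, which is the background for the count of each list. The 94 had a median log2 fold change of -0.03. None was called in M1 by edgeR, DESeq2 or limma-voom, where 0.0852% of all genes were called by edgeR and 4 of the 94 had an unadjusted p under 0.05. None was called in the difference of responses by edgeR or limma-voom, with 1 by DESeq2 and 13 at an unadjusted p under 0.05, where 0.164% of all genes were called by edgeR.

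Among transporters, none of 3 tested SLCO relatives was called in M2: SLCO4A1 went from 122 to 111 CPM, SLCO4C1 from 5.35 to 5.91 and SLCO3A1 from 1.08 to 1.00. Of 8 tested exporters of drugs and conjugates 2 rose and none fell. ABCC3, which exports organic anions, rose from 20.4 to 26.8 CPM (log2 fold change 0.39 ± 0.10, adjusted p = 0.022 by edgeR). Leaving out M2 MCHP replicate 1 (adjusted p = 0.11), M2 MCHP replicate 3 (0.063) or M2 DMSO replicate 3 (0.067) ended that call. ABCG2, an exporter of drugs and porphyrins, is the other gene called, from 4, 1 and 6 counts in M2 DMSO replicates 1 to 3 and 17, 28 and 30 in M2 MCHP, or means of 0.218 and 1.59 CPM. It passed the filter on low counts only through M2 MCHP, so that it had to differ, and its call is no support. The better counted ABCC1, ABCC6 and ABCC10 lay at 0.09, -0.12 and -0.01.

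Among amine oxidases, 1 of 7 tested fell in M2 and none rose. LOXL3, a lysyl oxidase of the extracellular matrix, went from 11.8 to 8.63 CPM (-0.45 ± 0.12, adjusted p = 0.037), a call lost in 9 of 20 alternatives, among them leaving out M2 MCHP replicate 1 (0.14), M2 MCHP replicate 3 (0.16) or M2 DMSO replicate 2 (0.077). AOC1 (-0.26) and the spermine oxidase gene SMOX (0.05) were not called. AOC2, the neighbour and close relative of AOC3, named after its values were seen, ends 477 bases before AOC3 starts. It stood at 5.23 CPM in M2 DMSO and 6.78 in M2 MCHP (0.37 ± 0.16, adjusted p = 0.20). How the counting treated reads that match both copies is not given in the sources used here, and both values are uncertain to that extent. None of 6 tested genes that handle aldehydes and hydrogen peroxide was called. Catalase (CAT) came close, from 85.9 to 72.9 CPM (-0.24 ± 0.07, adjusted p = 0.051 by edgeR). Of both leukocyte lectins known to bind AOC3, SIGLEC10 fell from 146 to 106 CPM (-0.46 ± 0.08, adjusted p = 0.0014), and SIGLEC9 lay at -0.24.

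In the TNF receptor family no tested relative of TNFRSF21 rose with MCHP in M2. Of 5 tested death receptors 1 fell and none rose: NGFR, a receptor for neurotrophins, went from 3.81 to 1.64 CPM (-1.21 ± 0.27, adjusted p = 0.012 by edgeR). Its call ended when M2 MCHP replicate 3 (0.074) or M2 DMSO replicate 3 (0.063) was left out. TNFRSF10B, TNFRSF1A and TNFRSF10A lay at -0.15, -0.10 and 0.09. Of 12 other tested members 3 fell and none rose: the costimulatory receptor CD40 from 60.2 to 45.4 CPM (-0.41 ± 0.08, adjusted p = 0.0075), TNFRSF14 from 30.3 to 20.6 (-0.55 ± 0.11, adjusted p = 0.0050) and TNFRSF9 from 24.7 to 19.1 (-0.37 ± 0.10). The TNFRSF9 call (adjusted p = 0.035) ended when M2 MCHP replicate 1 (0.14), M2 MCHP replicate 2 (0.12) or M2 DMSO replicate 2 (0.074) was left out, and also without M1 MCHP replicate 1 and with a replicate block (0.051 each). None of 10 tested genes of death receptor signalling was called, with APP, reported to bind TNFRSF21, at 1079 and 1065 CPM, and the kinase gene MAPK8 at 0.09.

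For PP2A, the scaffold gene PPP2R1B rose from 25.7 to 34 CPM (0.40 ± 0.09, adjusted p = 0.0090 by edgeR), 1 of 4 tested catalytic and scaffold genes. The catalytic genes PPP2CA and PPP2CB lay at -0.06 and -0.02 and the more abundant scaffold PPP2R1A at 0.15. None of the 12 other regulatory subunits tested was called, with PPP2R5A at 0.10 and PPP2R5C at -0.02. Nor was any of 11 regulators and partners, with LPP, which binds a PPP2R3A product, at 0.04. Among 6 tested proteins with von Willebrand factor A domains and 8 with multiple EGF-like domains none was called either, with VWA8 at -0.08, PARP4 at 0.01 and MEGF6 at -0.28. For the lists without a call in M2, edgeR's result is given, and over all 94 genes 27 had an unadjusted p under 0.05, with 10 called by DESeq2 and 10 by limma-voom. A fit of the 6 M2 libraries alone lost PPP2R1B (adjusted p = 0.10), CD40 (0.10), TNFRSF14 (0.067), NGFR (0.058), ABCC3 (0.15), LOXL3 (0.19) and TNFRSF9 (0.13).

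**Figure D4:**
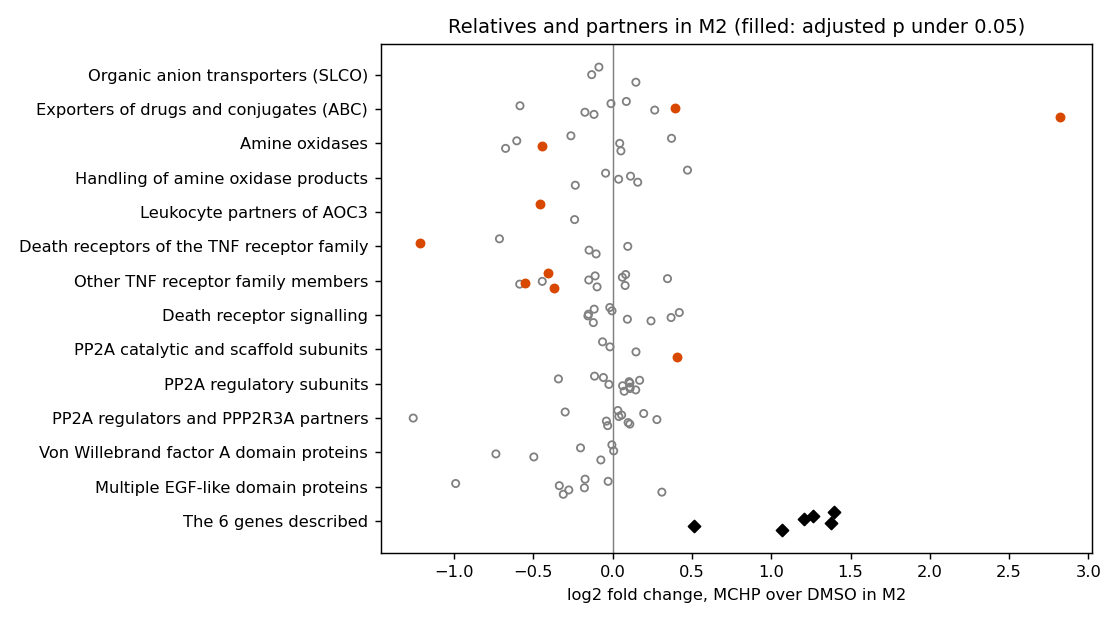
Log2 fold change of MCHP over DMSO in M2 (x axis) for 94 tested relatives and partners by list, with the 6 genes in the bottom row (black diamonds). Each circle is 1 gene, filled where the adjusted p was under 0.05; the filled circle at 2.82 is ABCG2, and no other relative passes the 6 genes' highest value of 1.39.

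Few counts were assigned to other genes that overlap these models, which does not show how reads from a shared stretch were assigned. SLCO2B1 is overlapped on the opposite strand by OR2AT1P and AP001972.4, with 5 and 3 counts over 12 libraries against 1499 for SLCO2B1. PPP2R3A is overlapped by AC072039.2, with 13 counts against 3700, and by a pseudogene with none. The other 4 models overlap no gene of the table.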

How the data were processed

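RNA from 12 libraries was measured. The authors deposited whole-number counts for every gene, not normalized, beside each model's length, as the file headers show. Named without roles in the submitters' processing notes are featureCounts 1.5.0-p3, the aligner HISAT2 2.0.5, the trimmer fastp, DESeq2 1.20.0, StringTie 1.3.3b and the build hg38; a strand setting is not given in the sources used here, so overlapping genes on opposite strands cannot be told apart. Libraries were purified on poly-T beads, per the labels' protocols.

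The tests used edgeR 4.0.16 under R 4.3.3: filterByExpr over the 4 groups (minimum count 10), TMM factors, 1 mean per group for all 12 libraries (8 residual degrees of freedom), quasi-likelihood F-tests (two-sided) and Benjamini-Hochberg adjustment over 15252 genes, called at an adjusted p under 0.05. SE is the log2 fold change over the root of F. The genes, lists and tests were chosen with earlier results of these data known. Named were the 6 genes, the 3 most alike to each, and from each list the 3 highest in CPM and up to 4 called for MCHP. Not every item this rule names is reported here. Intervals cover counting error only. On simulated counts with 200 changed genes, 53.7%, 82.1% and 90.9% of 1.5-, 2- and 4-fold changes were recovered in the M2 contrast, and 53.7%, 76.1% and 92.4% between M1 and M2 in DMSO, with 3.82% and 5.73% of calls false. The data called more genes, 779 and 6489 in these contrasts, and the simulation gave no library extra spread. These shares may therefore not hold for the data. Alternatives were other scalings, no filter, a replicate block, DESeq2 1.42.0, limma-voom (limma 3.58.1), compared groups only, protein-coding genes only, and each library left out.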

Additional observations from a re-analysis of the deposited data

Results flagged for a closer look

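The MCHP response in M2 exceeded that in M1 by 1.24 for AOC3 and by 0.57 for TNFRSF21 (log2). These 2 stand here because, of the 6 genes, the gap between the states was widest against its error for them. In each, all 3 M2 libraries with MCHP lay above all 3 with DMSO, and the M1 groups overlapped. Both traits also held for MEGF9, and the first held for all 6 genes and for 11.2% of all genes tested. The gap between the states helped to choose AOC3 and TNFRSF21, so it is a description with no test, and no independent finding. With 1 library left out at a time it ran from 1.11 to 1.38 for AOC3 and from 0.478 to 0.651 for TNFRSF21.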

How the results depend on the processing

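Of 120 repeats of the tests of the 6 genes between M2 and M1 in DMSO, 117 kept their direction and side of the threshold. Among them are fits that leave out an MCHP library, whose estimates could hardly move because the DMSO libraries stay the same. VWA5A was lost without M1 DMSO replicate 3 or M2 DMSO replicate 2, its log2 fold change running from 0.565 to 0.903 over the fits that leave out 1 library, and AOC3 was called without M2 DMSO replicate 3, within a range of -0.473 to -0.203. Counts of called genes moved more. MCHP in M2 called 779 genes, 177 when only M2 libraries were fitted and 386 to 1747 with 1 library left out (386 and 393 without M2 MCHP replicates 1 and 3, 1747 without M2 DMSO replicate 1). MCHP in M1 called 13, with 76 without a filter on low counts, 50 by DESeq2, 287 when only M1 libraries were fitted, and 1 to 160 with 1 library left out. The difference of responses called 25, with 170 without a filter, 96 by DESeq2 and 6 to 385 with 1 library left out; 160 and 385 are without M2 DMSO replicate 1. The cause of these shifts was not tested. Scaled by library size without TMM, the median over all genes of M1 minus M2 in DMSO was -0.132, and 4532 genes were higher in M2 and 2395 lower, against 3193 and 3296. In M2, MCHP then gave 306 higher and 465 lower, against 446 and 333. Replicate numbers did not pair the libraries: same-numbered libraries had correlations of -0.0478 to 0.0385 in their deviations, and 0 of 12 correlated best with their own number. With a replicate block, MCHP in M1 called 5 genes, MCHP in M2 692, the difference 24, and M2 against M1 6387 in DMSO and 6700 with MCHP. Depth limits SLCO2B1 in M1, at 3 to 18 counts per library.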
